A study of Homo sapiens with 8 samples.

Results

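The NOTCH pathway and the ID proteins hold back neuronal differentiation in embryonic precursors, the sympathetic precursors from which neuroblastoma arises included. A NOTCH receptor is cut when a ligand on a neighbouring cell binds it, and the freed inner part joins RBPJ and a Mastermind protein on DNA to switch on HES and HEY genes. HES1 and HEY1 are basic helix-loop-helix repressors that shut off proneural genes. ID proteins have a helix-loop-helix but no DNA-binding basic region, so they capture E proteins and keep them from pairing with proneural factors. Here 10 genes of these systems were followed: the receptor gene NOTCH1, the ligand genes DLL1 and DLL3, the target genes HES1 and HEY1, their relative HES6, and ID1, ID2, ID3 and ID4. They were chosen by name, with earlier results of these data known. Each symbol matched 1 Ensembl identifier, and together they are 10 of the 58787 genes in the deposited count table. All 10 passed the filter on low counts.

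The cells were IMR32, an established human neuroblastoma line with amplified MYCN, of unmodified genotype per the labels. They were left to attach for 48 h, given fresh medium and then either CR31B at its IC50 (the concentration is not given in the sources used here) or 0.1% DMSO as vehicle, and were collected after 6 h. CR31B is a rocaglate, one of a class of compounds that clamp the helicase eIF4A onto RNA and so block the start of translation. Polyadenylated RNA was sequenced in 4 libraries per group, called biological replicates by the submitters, and a single cell line carries all results.

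Total counts lay between 43687828 and 64715535 per library, so 3 counts, the limit taken for a gene with 0 counts, correspond to at most 0.0687 CPM (counts scaled to library size). By the labels, replicate 1 was read from both fragment ends in each group, and replicates 2 to 4 from a single end. The replicate 1 libraries stood apart: the library labelled CR31B correlated better across genes with the single-end DMSO libraries (mean r 0.995) than with the single-end CR31B libraries (0.987), and the library labelled DMSO did the reverse (0.987 with the DMSO and 0.994 with the CR31B libraries). Results are therefore given for all 8 libraries as labelled, for replicates 2 to 4 alone, and for replicate 1 as single values. An interaction test of replicate 1 against the others is given where named. The sources used here do not say whether the labels of the replicate 1 libraries were exchanged, which would turn the sign of each replicate 1 difference and alter each 8-library value. No label was changed. The threshold was an adjusted p of 0.05 by edgeR's quasi-likelihood test with Benjamini-Hochberg adjustment. It was passed by 0 of 16518 genes, or 0%, in all 8 libraries, where 205 were under 0.05 unadjusted. DESeq2 and limma voom also called 0, with 263 and 219 under 0.05 unadjusted. In replicates 2 to 4 the same test called 6901 of 16696 genes, or 41.3%: CR31B libraries were higher for 23.8% and lower for 17.6%. Of these calls 57.5% were higher with TMM scaling, 40% with upper quartile scaling and 43.1% with total counts. Calls below, and the verbs rose and fell, refer to replicates 2 to 4 unless all 8 libraries are named.

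The sympathoadrenal identity of the cells was checked with 13 marker genes, whose summed level was 5728 to 7382 CPM in the CR31B libraries and 5443 to 7173 CPM in the DMSO libraries. In replicates 2 to 4 these sums did not overlap, at 6715 to 7382 CPM with CR31B and 5443 to 5772 CPM with DMSO, and 6 of the 13 markers rose and 4 fell. The part of this difference in the results below was not tested. MYCN, amplified in this line, supplied 2304 to 2966 CPM of the sum in each library, while TH, another of the 13, had 1.77 to 3.03 CPM. Markers of other cell types were at or near 0. Those of blood cells summed to at most 1.09 CPM, of endothelium to at most 2.89, of epithelium to at most 0.273 and of Schwann cells or glia to at most 8.50, and SOX10, GFAP, PRRX1 and POSTN had 0 counts in every library. Mesenchymal markers summed to 17.5 to 30.5 CPM with DMSO and 20.1 to 32.3 CPM with CR31B, nearly all from COL1A1. In bulk RNA, fewer cells with a transcript and less of it per cell cannot be told apart.

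As labelled over all 8 libraries, 0 of the 10 genes passed, against 0% of all genes, and DLL1 alone had an unadjusted p under 0.05. In replicates 2 to 4, 6 of the 10 rose (ID4, HES1, HEY1, DLL1, NOTCH1 and ID1) and 1 fell (DLL3), which is to be read against 41.3% of all genes called. That share includes genes of low count. Under a stricter filter of 1 CPM in every library of a group, 6950 of 13099 genes and 6 of the 10 were called. The median log2 fold change of the 10 genes was 0.42, where that of all tested genes was -0.01. ID2, ID3 and HES6 did not pass. With replicate number as a block, which takes same-numbered libraries as pairs, all 10 passed, and so did 8540 of the 16696 genes tested. In replicate 1 all 10 differences had the opposite sign to those of replicates 2 to 4. Nearly all called genes shared this, with 6822 of 6901 (98.9%) opposite in replicate 1. For 7 of the 10 genes the treatment by layout test passed, against 42.5% of all genes.

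**Figure D1:**
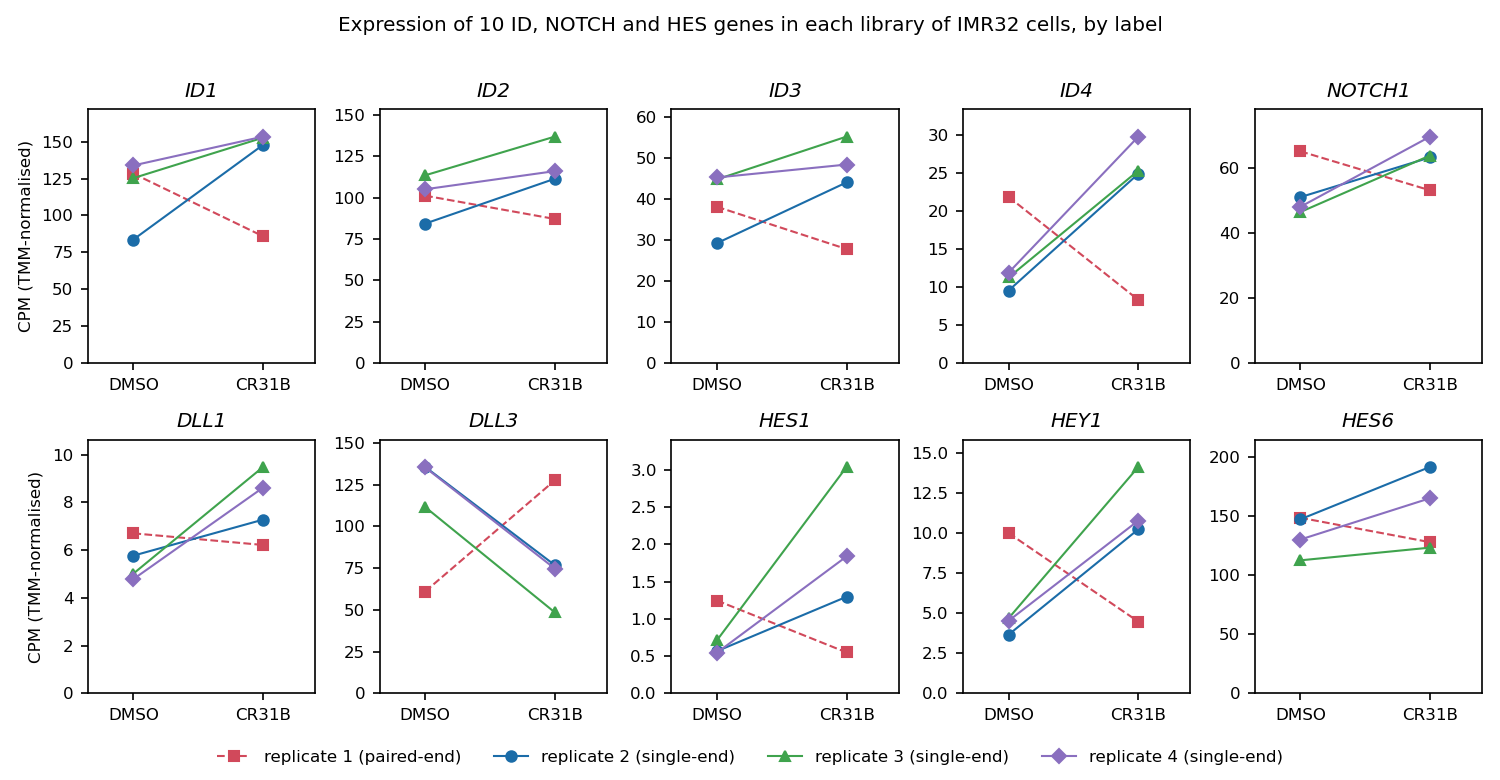
TMM-normalised CPM (vertical axis, from 0) of the 10 genes in the DMSO and CR31B libraries; each line joins the same-numbered libraries, dashed for the paired-end replicate 1. ID4, HES1 and HEY1 are higher and DLL3 lower with CR31B in replicates 2 to 4, and replicate 1 slopes the other way in every panel.

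The genes lie on 8 chromosomes (GRCh38, GENCODE 29), and all are protein-coding. NOTCH1 (ENSG00000148400) is on chromosome 9 from 136494433 to 136545786, minus strand. DLL1 (ENSG00000198719) is on chromosome 6 from 170282206 to 170306565, minus strand, and ID4 (ENSG00000172201) on the same chromosome from 19837386 to 19840684, plus strand. DLL3 (ENSG00000090932) is on chromosome 19 from 39498895 to 39508481, plus strand. HES1 (ENSG00000114315) is on chromosome 3 from 194136145 to 194138732, plus strand. HES6 (ENSG00000144485) is on chromosome 2 from 238238267 to 238240662, minus strand, and ID2 (ENSG00000115738) on the same chromosome from 8678845 to 8684453, plus strand. ID1 (ENSG00000125968) is on chromosome 20 from 31605283 to 31606515, plus strand, and ID3 (ENSG00000117318) on chromosome 1 from 23557918 to 23559794, minus strand. No exonic base of these 9 genes is shared with another gene on the same strand. ID2 shares 1.72% of its exonic bases with the antisense gene ID2-AS1, and the strand setting of the counting is not given in the sources used here beyond the word reverse in the name of the deposited table, so reads of the overlap may come from either gene.

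HEY1 (ENSG00000164683) is on chromosome 8 from 79764010 to 79767863, minus strand, with no exonic overlap on its strand.

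Levels per length set the scale of the system. In RPKM (CPM per kilobase of merged exons, mean of 8 libraries with the lowest and highest), ID1 was first with 102.5 (67.9 to 124), followed by HES6 with 70.4 (55.3 to 94.2), ID2 with 48.5 (38.2 to 62.1), DLL3 with 36.8 (18.5 to 51.8) and ID3 with 23.1 (15.5 to 30.7). ID4 had 7.60 RPKM (3.54 to 12.7), NOTCH1 5.56 (4.49 to 6.73), HEY1 2.42 (1.14 to 4.38), DLL1 2.09 (1.48 to 2.94) and HES1 0.593 (0.264 to 1.47). Neighbours in this order overlapped in range, except that ID4 stayed below ID3, HEY1 below NOTCH1 and HES1 below DLL1 in all libraries. HES1 stood at the bottom of the order. HES6, a relative that counters HES1 and favours neuronal differentiation, stood near the top.

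Windows before 7 of the 10 genes were taken from the RefSeq promoter table (GRCh38.p14). No entry was found for DLL1 and DLL3, and HEY1 was left out of the search, so its motifs are not known here. The stretch before HES1 is shown because HES1 is the target gene through which NOTCH activity is usually read, and that before ID4 because ID4 rose most among the ID genes. Capitals mark the RBPJ core TGGGAA in HES1 and the E-box CANNTG, the site of E protein dimers, in ID4. The HES1 stretch is chr3:194135898-194136144 and the ID4 stretch chr6:19837120-19837369, both on the plus strand, 5′ to 3′, ending before the annotated start.

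HES1: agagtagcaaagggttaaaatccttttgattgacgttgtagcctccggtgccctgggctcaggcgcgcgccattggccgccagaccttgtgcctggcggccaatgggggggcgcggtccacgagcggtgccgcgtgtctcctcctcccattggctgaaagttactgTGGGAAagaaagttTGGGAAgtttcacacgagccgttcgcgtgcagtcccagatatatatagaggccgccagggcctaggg
ID4: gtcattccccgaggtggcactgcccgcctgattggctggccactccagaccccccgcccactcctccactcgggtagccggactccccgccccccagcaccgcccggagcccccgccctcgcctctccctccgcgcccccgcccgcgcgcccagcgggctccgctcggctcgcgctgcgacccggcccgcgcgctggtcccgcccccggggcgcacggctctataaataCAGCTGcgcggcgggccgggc

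Both RBPJ cores of HES1 lie on the gene's own strand, their first bases 84 and 70 bases before the RefSeq start. In windows of 250 bases before the start, on both strands, 21.1% of 27305 promoters hold TGGGAA and 2.92% hold it at least 2 times; of the 7 genes HES1 alone had it. The HES and HEY site CACGNG matched 4 times before HES1, at 132, 120, 58 and 47 bases, and in no other of the 7 genes; 26.5% of all promoters hold it and 0.381% at least 4 times. The E-box CANNTG, which includes the CACGTG form of CACGNG, matched once each before ID4, ID2 and HES6, against 62.2% of all promoters. The SMAD element GGCGCC matched once, before NOTCH1 (16.1% of all promoters). CCAAT matched in ID1, ID2, ID4, HES1 and HES6 (33% of all promoters). No window before ID3 held any of these motifs. These matches are a description of the letters in the windows and were not set against the measured changes.

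**Figure D2:**
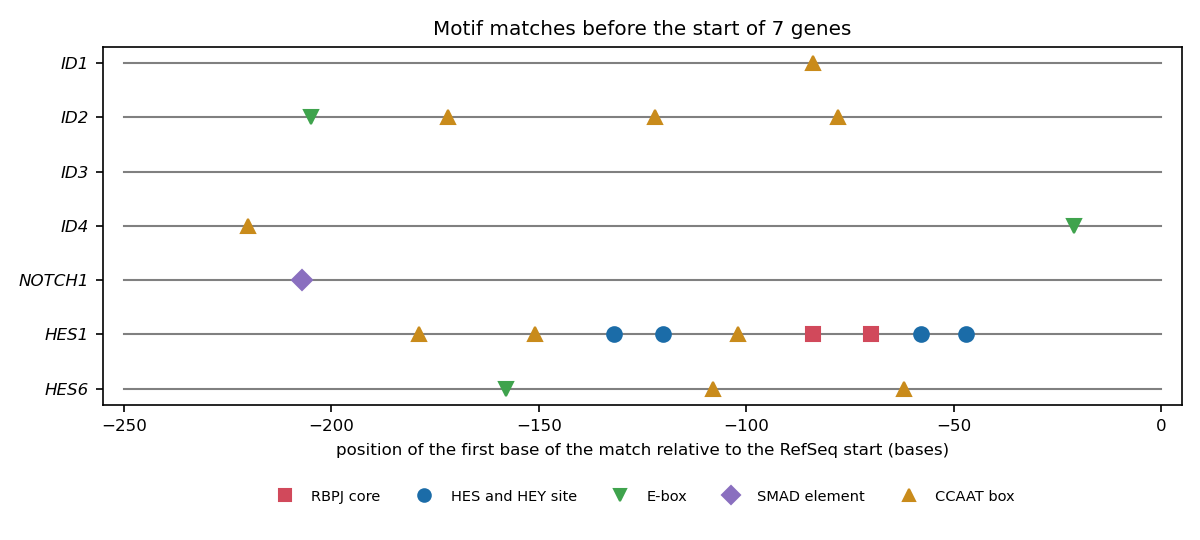
Positions of 5 motifs (coloured symbols) in the 250 bases before the RefSeq start of 7 genes; the horizontal axis gives the first base of each match relative to the start. HES1 holds 2 RBPJ cores between 2 upstream and 2 downstream HES and HEY sites, and ID3 holds none of the 5.

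NOTCH1, the receptor, rose a little and evenly. It had 63.4, 64.0 and 69.8 CPM in CR31B replicates 2, 3 and 4 and 51.2, 46.6 and 48.2 CPM in the DMSO libraries of the same numbers. All 3 CR31B libraries were above all 3 DMSO libraries. The level was 65.8 ± 3.55 CPM with CR31B and 48.6 ± 2.33 CPM with DMSO (SD, n = 3 each), 1.35-fold higher, and the log2 change from edgeR was 0.44 ± 0.060 (SE; adjusted p = 0.000236). Replicate 1 had 53.3 CPM in its CR31B-labelled and 65.3 CPM in its DMSO-labelled library.

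The ligand genes went opposite ways. DLL1, which encodes a ligand that activates NOTCH on neighbouring cells, had 7.28, 9.49 and 8.63 CPM in CR31B replicates 2, 3 and 4 against 5.77, 5.02 and 4.79 CPM in DMSO. The groups did not overlap, and the gap was narrowest in replicate 2. DLL1 rose 1.63-fold, with a log2 change of 0.71 ± 0.12 (SE; edgeR adjusted p = 0.00113). Replicate 1 differed little at this gene, with 6.22 CPM in the library labelled CR31B and 6.71 CPM in that labelled DMSO, a log2 difference of -0.11.

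DLL3 encodes a divergent ligand that is retained inside the cell, does not activate NOTCH on neighbours and is a surface target in neuroendocrine tumours. It had 76.7, 48.5 and 74.7 CPM in CR31B replicates 2, 3 and 4 and 135.6, 112 and 135.3 CPM in DMSO. Every CR31B library of these replicates was below every DMSO library. DLL3 fell 1.91-fold, from 127 ± 13.8 to 66.6 ± 15.8 CPM (SD, n = 3 each), with a log2 change of -0.94 ± 0.15 (SE; edgeR adjusted p = 0.000656). In replicate 1 the values were 128 CPM in the library labelled CR31B and 61.0 CPM in that labelled DMSO.

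Per kilobase, DLL3 stood 28.95, 27.4 and 34.8 times above DLL1 in DMSO replicates 2, 3 and 4 and 13.0, 6.29 and 10.7 times above it in the CR31B libraries. The mean ratio was 30.4 ± 3.92 with DMSO and 9.98 ± 3.4 with CR31B (SD, n = 3 each), without overlap. DLL3 remained the more abundant of both ligand transcripts in each library. The ratio in replicate 1 was 25.3 in the library labelled CR31B and 11.2 in that labelled DMSO.

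**Figure D3:**
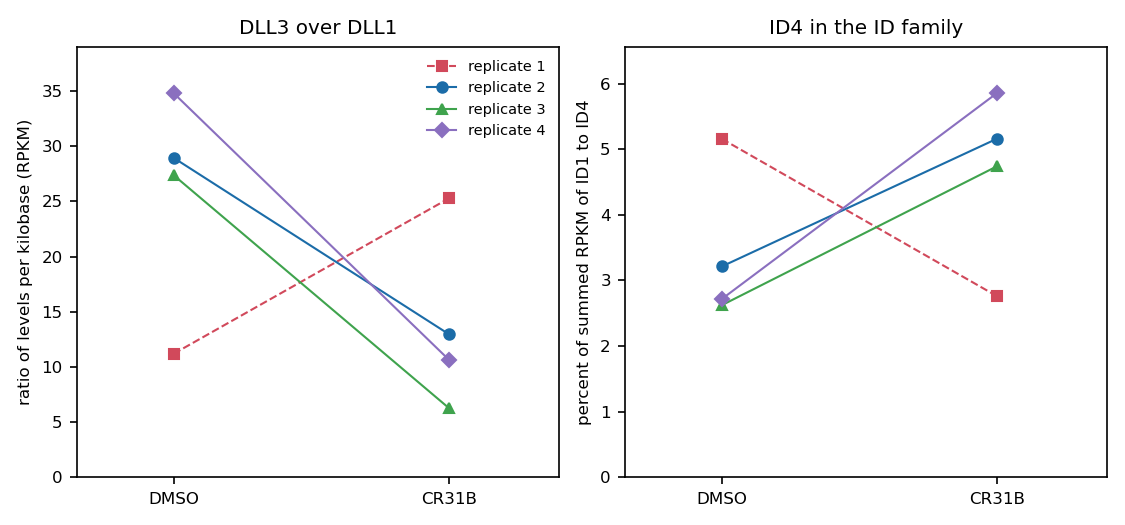
Left, ratio of DLL3 to DLL1 levels per kilobase; right, percent of the summed ID1 to ID4 level that is ID4; vertical axes start at 0 and lines join same-numbered libraries, dashed for replicate 1. In replicates 2 to 4 the DLL3 to DLL1 ratio is 27.4 to 34.8 with DMSO and 6.29 to 13.0 with CR31B, and the ID4 percentage 2.62 to 3.21 and 4.74 to 5.85.

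HES1, the classic NOTCH effector gene, was scarce and had the largest rise of the 10. Its counts were 68, 176 and 82 in CR31B replicates 2, 3 and 4 and 35, 48 and 28 in DMSO, or 1.30, 3.04 and 1.84 CPM against 0.566, 0.711 and 0.545 CPM. The groups did not overlap, but CR31B replicate 3 was well above the other 2. HES1 rose 3.38-fold, with a log2 change of 1.76 ± 0.30 (SE; edgeR adjusted p = 0.00108). Without CR31B replicate 3 the log2 change was 1.35 and still passed. In replicate 1 the library labelled CR31B had 31 counts (0.549 CPM) and that labelled DMSO 52 (1.25 CPM).

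HEY1, which encodes a HES-related repressor, had 10.3, 14.2 and 10.8 CPM in CR31B replicates 2, 3 and 4 and 3.67, 4.69 and 4.54 CPM in DMSO. The lowest CR31B library was above the highest DMSO library by more than the whole range of the DMSO group. HEY1 rose 2.74-fold, with a log2 change of 1.45 ± 0.14 (SE; edgeR adjusted p = 2.89e-05). The replicate 1 libraries had 4.48 CPM (labelled CR31B) and 10.01 CPM (labelled DMSO). Replicate 3 had the highest value among the single-end CR31B libraries for both effector genes.

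HES6 behaved differently from HES1 and HEY1. It had 192, 123 and 165 CPM in CR31B replicates 2, 3 and 4 and 147, 113 and 130.3 CPM in DMSO. The groups overlapped, and replicate 3, the highest for HES1 and HEY1 with CR31B, was the lowest for HES6 in both groups. Its log2 change of 0.30 ± 0.14 (SE) did not pass (edgeR adjusted p = 0.116). With the replicate block it was 0.29 and passed (edgeR adjusted p = 0.000929). All 3 same-numbered pairs differed the same way. Leaving out CR31B replicate 2 gave 0.15 (edgeR adjusted p = 0.377) and leaving out CR31B replicate 3 gave 0.46, which passed (edgeR adjusted p = 0.00385). In replicate 1 HES6 had 128 CPM in the library labelled CR31B and 149 CPM in that labelled DMSO.

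Among the ID genes, ID4 rose most. ID4, which is expressed in neural precursors and is the least abundant of the 4 here, had 24.9, 25.3 and 29.7 CPM in CR31B replicates 2, 3 and 4 and 9.52, 11.2 and 11.9 CPM in DMSO. The groups were far apart relative to their spread. ID4 rose 2.45-fold, from 10.9 ± 1.22 to 26.6 ± 2.7 CPM (SD, n = 3 each), with a log2 change of 1.29 ± 0.10 (SE; edgeR adjusted p = 6.58e-06). Replicate 1 had 8.29 CPM in the library labelled CR31B and 21.8 CPM in that labelled DMSO.

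ID1, a direct target of BMP signalling through SMAD1 and SMAD5, had 148, 153 and 153 CPM in CR31B replicates 2, 3 and 4 and 83.7, 125 and 134 CPM in DMSO. The CR31B libraries lay close together and above all DMSO libraries, among which replicate 2 was low. ID1 rose 1.33-fold, with a log2 change of 0.41 ± 0.14 (SE; edgeR adjusted p = 0.0351). This call was near the threshold: it did not hold under upper quartile scaling (edgeR adjusted p = 0.0908), total count scaling (0.0771), the stricter filter (0.0506) or DESeq2 (0.0934), nor without CR31B replicate 3 (0.0531), CR31B replicate 4 (0.0893) or both libraries of replicate 3 (0.0772). Without DMSO replicate 2 the log2 change was 0.23 (edgeR adjusted p = 0.0142), and in replicate 1 ID1 had 85.9 CPM in the library labelled CR31B and 128 CPM in that labelled DMSO.

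ID2, which is able to bind the retinoblastoma protein, had 111, 137 and 116 CPM with CR31B and 84.3, 113 and 105 CPM with DMSO in replicates 2, 3 and 4. ID3, like ID1 a BMP-responsive gene, had 44.0, 55.2 and 48.4 CPM with CR31B and 29.2, 44.8 and 45.2 CPM with DMSO. Both genes overlapped between the groups, although each was higher with CR31B in all 3 same-numbered pairs. The log2 changes were 0.27 ± 0.11 (SE; edgeR adjusted p = 0.0682) for ID2 and 0.31 ± 0.15 (SE; edgeR adjusted p = 0.117) for ID3, neither past the threshold. With the replicate block they were 0.27 (edgeR adjusted p = 0.00118) and 0.33 (edgeR adjusted p = 0.00507), both past it. Without DMSO replicate 2 the unblocked changes were 0.15 and 0.13, and without CR31B replicate 3 that of ID2 was 0.18. ID2 passed without CR31B replicate 2 (0.33, edgeR adjusted p = 0.0416) or DMSO replicate 3 (0.36, edgeR adjusted p = 0.0328). In replicate 1 the libraries labelled CR31B and DMSO had 87.1 and 101 CPM for ID2 and 27.8 and 38.1 CPM for ID3.

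ID1, ID2 and ID3 shared the order of their pair differences. The log2 difference was largest in replicate 2 (0.82, 0.40 and 0.59 for ID1, ID2 and ID3), smaller in replicate 3 (0.29, 0.27 and 0.30) and smallest in replicate 4 (0.20, 0.14 and 0.10). DMSO replicate 2 was the lowest single-end DMSO library for all 3 genes. ID4 did not follow this order, with 1.38, 1.17 and 1.32. The ID4 percentage of the summed ID1 to ID4 level per kilobase was 5.25 ± 0.563 with CR31B and 2.85 ± 0.317 with DMSO (SD, n = 3 each), while the sum itself was 217 ± 10.9 and 165 ± 33.7 RPKM.

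**Figure D4:**
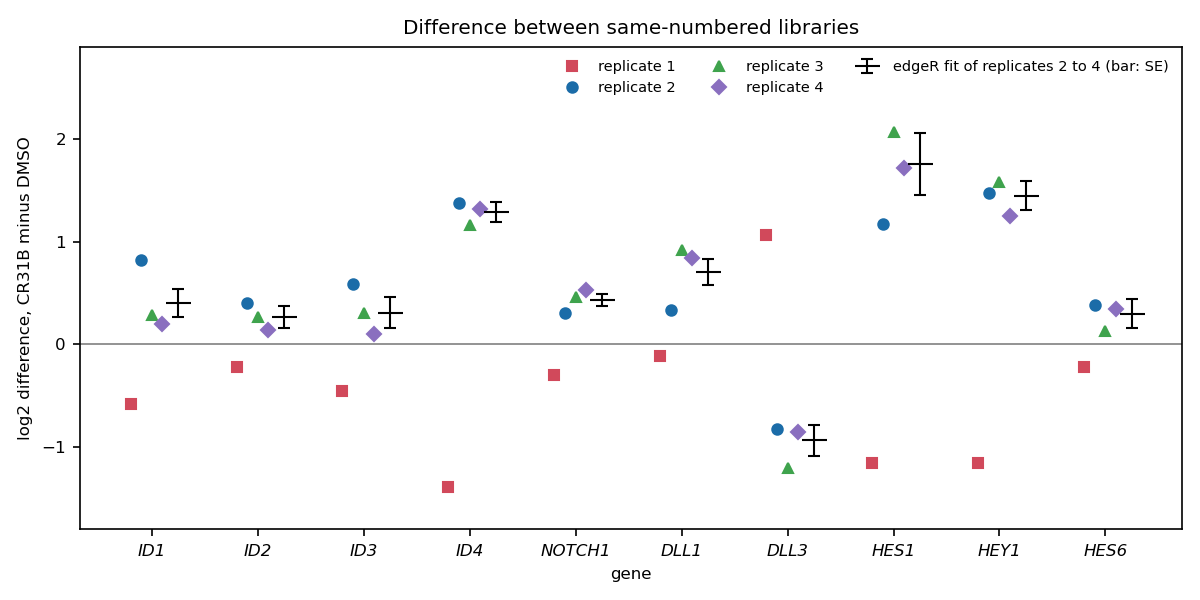
Log2 difference, CR31B minus DMSO, between same-numbered libraries for each gene (coloured symbols, replicates 1 to 4) and the edgeR estimate from replicates 2 to 4 with its SE (black). Replicates 2 to 4 lie on 1 side of 0 for every gene and replicate 1 on the other.

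The surrounding pathway was described with 10 lists holding 111 genes, of which 98 were tested and 65 called (66.3%, against 41.3% of all genes): 53 rose and 12 fell. The share of all genes includes genes of low count. Under the filter of 1 CPM in every library of a group, 6950 of 13099 genes were called, and the lists were not counted under it. The lists were chosen with earlier results of these data known, so this comparison is a description and not independent evidence. In replicate 1 all 65 had the opposite sign, near the 98.9% of all called genes. With all 8 libraries 0 of them passed, against 0% of all genes. Values below are edgeR log2 changes in replicates 2 to 4 with adjusted p under 0.05 unless stated. Each count per list is to be read against all genes tested, of which 23.8% were higher and 17.6% lower. Under upper quartile scaling 45 of the 98 rose and 15 fell, and with total counts 46 and 14, a check chosen after seeing the data. No gene that passed turned its direction in these fits or under RLE scaling.

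Upstream of the receptor, 3 of 7 other ligand genes rose and none fell, a share called near the 41.3% of all genes. These were JAG1 (1.04) and JAG2 (0.49), which encode the Jagged ligands, and the non-canonical DLK2 (0.44). None of NOTCH2, NOTCH3 and NOTCH4 passed. Of 9 genes for receptor glycosylation and ligand uptake 4 fell and 1 rose, with a median of -0.15. NEURL1B (-0.77), a ligase for ligand uptake, and the Fringe sugar transferases LFNG (-0.66) and MFNG (-0.47) fell, as did POFUT1 (-0.23). The MFNG call was near the threshold (edgeR adjusted p = 0.0449), and the remaining Fringe gene, RFNG, did not pass (0.06, edgeR adjusted p = 0.519). MIB1, another ligand-uptake ligase, rose by 0.45, and the related ligase genes MIB2 (-0.11, edgeR adjusted p = 0.599) and NEURL1 (-0.15, edgeR adjusted p = 0.213) did not pass. POFUT1, RFNG, MIB1, MIB2 and NEURL1 were named after their values were seen.

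For receptor cleavage 4 of 9 genes rose and 1 fell, where 41.3% of all genes were called. Of the γ-secretase subunit genes, PSEN2 (0.25) rose and APH1A (-0.40) fell. Under upper quartile or total count scaling 1 of the 9 rose, and PSEN2 did not pass (edgeR adjusted p = 0.0727 and 0.0549). The list of the nuclear complex and its corepressors had a median of 0.46, with 11 of 14 genes higher and 2 lower. EP300 (1.68), a histone acetyltransferase, and the Mastermind coactivators MAML2 (1.58) and MAML3 (0.68) rose most. RBPJ itself, named after its value was seen, rose by 0.45. The genes that fell were CIR1 (-0.39) and SNW1 (-0.23), also named after their values were seen.

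Among genes that limit NOTCH signalling, 5 of 8 tested rose and none fell, DTX2 (0.76), FBXW7 (0.65) and DTX1 (0.63) the most. With 41.3% of all genes called, counts in lists this small say little about the lists. NRARP, a feedback inhibitor that NOTCH itself induces, had -0.01 (edgeR adjusted p = 0.931) and was named after its value was seen. Of the other HES and HEY genes 6 of 9 were tested. HEY2 (0.90) and BHLHE40 (0.75) rose, HES2 (-0.71, at a mean of 0.605 CPM; named after its value was seen) fell, and HES5 had 0 counts in all libraries. Of the 5 TLE genes, corepressors that HES and HEY proteins recruit, TLE4 (1.05), TLE3 (0.97) and TLE1 (0.89) rose and TLE5 (-0.24), which lacks the repressing domain of its relatives, fell.

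Transcripts of the E proteins, which ID proteins capture, did not move as a block: TCF4 rose by 0.59 and TCF12 by 0.50, and TCF3 fell by 0.29. Protein levels were not measured here. The list of E proteins and proneural factors also holds HAND1, HAND2, TWIST1 and INSM1. It had 7 of 13 tested genes higher and 1 lower, with NEUROD4 (1.43) and HAND2 (0.97) first. HAND2 is also among the 13 identity markers. The list of BMP signalling, the main input to ID genes, had 17 of 24 tested genes higher and 2 lower, with a median of 0.54. The receptor SMAD gene SMAD1 rose by 1.21 and the inhibitors BAMBI by 1.31 and NOG by 2.41, the last at a mean of 1.51 CPM. SMAD5 (0.78), SMAD6 (0.99) and SMAD7 (0.84) rose as well, named like TCF12 and TCF3 after their values were seen.

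**Figure D5:**
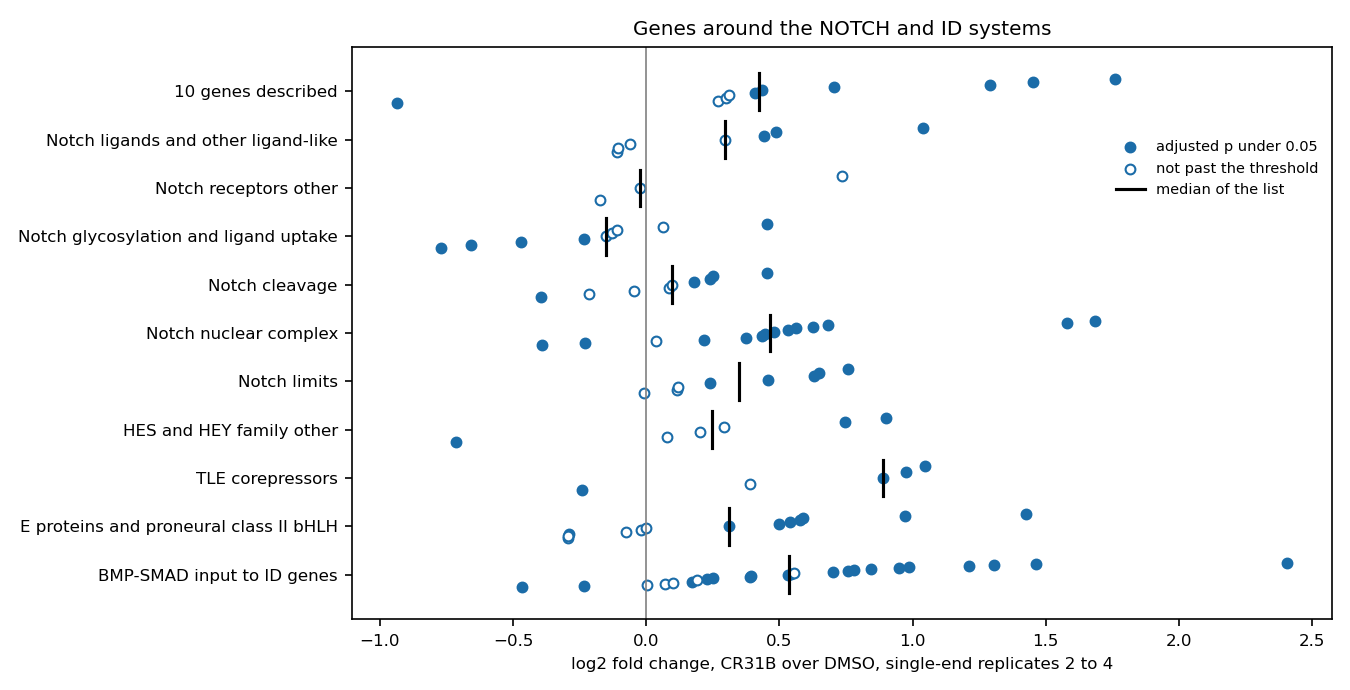
Log2 fold change (horizontal axis, CR31B over DMSO, edgeR, replicates 2 to 4) of each tested gene by list; filled circles passed an adjusted p of 0.05, open circles did not, and black bars are list medians. The nuclear complex, TLE and BMP lists have medians of 0.46, 0.89 and 0.54, and the glycosylation list -0.15.

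For the 3 genes with the largest changes, protein-coding genes among the 3 most alike in level over the 8 libraries were listed by Pearson's r of log2 CPM. For HES1 these were ELMO1 (0.994), KIF5A (0.993) and NRSN2 (0.991), for HEY1 TFCP2 (0.997), ZNF174 (0.997) and CDH10 (0.995), and for ID4 SEC24D (0.998) and DEPDC7 (0.996). The libraries fall into 2 clusters that many genes share. Of 10289 candidates, 1009, 2168 and 2075 had an r over 0.9 with HES1, HEY1 and ID4, so such values are common here.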

How the data were processed

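The authors deposited raw counts per Ensembl gene for 8 libraries, without normalisation. The submitters' processing notes name GRCh38, FastQC 0.11.7, STAR 2.7.2b, edgeR 3.36.0 and limma 3.50.3, with no role; the counting tool, its strand setting and the annotation are not given in the sources used here. Per the protocols the kit was one for small RNA, while the molecule is given as polyadenylated RNA. Libraries used 250 ng RNA and 15 PCR cycles, per the labels' protocols, so counts may include PCR duplicates and limits from depth cover counting error only. Columns were matched to libraries by name; that of CR31B replicate 4 lacks its first letter.

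Counts were tested with edgeR 4.0.16 (R 4.3.3; glmQLFit, glmQLFTest, filterByExpr, TMM, two-sided, Benjamini-Hochberg, threshold 0.05), with layout as covariate for 8 libraries, none for replicates 2 to 4, and a treatment by layout term for the interaction. CPM use TMM factors of all 8 libraries, and pair differences a prior count of 1. Of the identifiers 58515 were in GENCODE 29. Alternatives were other scalings, filters, DESeq2 1.42.0, limma voom 3.58.1, GC and length offsets, a replicate block and leaving out libraries.

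Deviations from group means correlated within same-numbered single-end pairs (0.206, 0.384 and 0.157). Differently numbered libraries were not compared in this way, so these values do not settle whether the numbers mark pairs. The smallest chi-square per gene between libraries was 7.16 (1 is expected for 2 draws of 1 library), so none was a duplicate. Genes named were the 10 members and, per list, up to 3 called genes with a mean of at least 1 CPM and 1 direction in replicates 2 to 4, by size of change; a few genes that the rule names are not reported here. Members and lists were chosen with earlier results of these data known. On simulated counts, replicates 2 to 4 recovered 90% of 100 genes changed 2-fold and 75% of 100 changed 1.5-fold among 16361 genes, with 2 false calls. Unlike the data, the simulation gave all genes the same dispersion, had no pairing and changed few genes, equally up and down. It therefore checks the code and does not give the error rate of the calls reported here.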

Additional observations from a re-analysis of the deposited data

Results flagged for a closer look

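The difference between CR31B and DMSO in replicate 1 departed from that of replicates 2 to 4 in 7 of the 10 genes by the treatment by layout test (edgeR quasi-likelihood, adjusted p under 0.05), against 42.5% of all genes. The log2 interaction, replicate 1 minus replicates 2 to 4, was -2.93 for HES1, -2.69 for ID4, -2.61 for HEY1, -0.985 for ID1, -0.813 for DLL1, -0.728 for NOTCH1 and 2.00 for DLL3. With a single library of each treatment in replicate 1, its own spread is unknown and that of replicates 2 to 4 stands in for it. Read layout and replicate number cannot be told apart.

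A single library lay far from the other 3 of its labelled group in 3 of the 20 groups checked (10 genes, 2 treatments). Chance gives about 1 if the groups are independent, but several of the genes go together (r = 0.849 for ID1 and ID4). The share of all genes with such a library was not computed, and 98.9% of called genes were opposite in replicate 1. The gap to the nearest library, as a share of the range of log2 CPM, was 0.936 for ID1 and 0.86 for ID4 in the CR31B group, both for replicate 1. It was 0.859 for ID1 in the DMSO group, for replicate 2.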

How the results depend on the processing

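In replicates 2 to 4 all 10 genes kept their direction under every setting run, and ID4, HES1, HEY1, DLL1, DLL3 and NOTCH1 passed under each. The number called ranged from 6 to 10. It was 10 with the replicate block (8540 of all 16696 genes called), GC and length offsets (6619), both together (8434) and no filter (7326 of 29503). It was 6 with upper quartile scaling (7519), total counts (7375), the stricter filter (6950 of 13099) and without CR31B replicate 4 (5582 of 17073). The calls of ID1, ID2, ID3 and HES6 changed with these settings. Over all genes, leaving out libraries or pairs gave 3981 (without replicate 4) to 6727 calls.

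With all 8 libraries, 0 of the 10 genes passed in any setting that kept replicate 1 whole, and leaving out libraries gave 0 to 7 of them and 0 to 6920 of all genes. Calls appeared without CR31B replicate 1 (7 and 6920), DMSO replicate 1 (7 and 6906) or both (7 and 6901). In these fits ID1 ranged from -0.0311 to 0.408 and ID3 from -0.0384 to 0.312, negative without DMSO replicate 2 or both libraries of replicate 2. In the interaction test DLL1 did not pass under upper quartile scaling or total counts. The cause of these changes was not tested. Depth limits HES1 most, with 28 to 176 counts per library.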
